A study of Mus musculus with 20 samples.

Results

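Transcription in C2C12 myotubes was compared between libraries in which muscle-specific kinase (MuSK) had been activated and libraries in which its activation by agrin had been blocked. C2C12 is a mouse myoblast line whose cells fuse into multinucleated myotubes, here after 5 days of differentiation. The comparison took 16 of the 20 total RNA libraries of the study, chosen by treatment. The 8 active libraries came from 2 treatments with 4 biological replicates each: 0.1 nM neural agrin with 7.7 nM b12 hIgG4, a negative control antibody, and 7.7 nM 13-3B5 hIgG4, a bivalent antibody that activates MuSK and was given without agrin. The 8 inhibited libraries also came from 2 treatments of 4 replicates, 0.1 nM neural agrin with 7.7 nM 13-3B5xb12 and the same agrin with 7.7 nM 11-3F6xb12, both monovalent antibodies that the labels describe as inhibiting MuSK. All cells were treated for 16 h. The control that received b12 alone, 4 libraries, was left out. All inhibited libraries had received agrin, whereas 4 of the active ones had not, so the state of MuSK and the presence of agrin are partly confounded when the treatments are pooled. The states rest on the treatment labels, and MuSK activity itself was not analysed here.

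MuSK is a receptor tyrosine kinase at the neuromuscular synapse. Agrin, released by the motor nerve, binds Lrp4 on the muscle surface, Lrp4 engages MuSK, and the cytoplasmic adaptor Dok7 then supports its phosphorylation. The signal gathers acetylcholine receptors into clusters through Rapsn and, in muscle fibres, is known to support transcription of synaptic genes in the nuclei beneath the nerve terminal.

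The 16 libraries held 18771259 to 23343903 counts. Active libraries had a mean of 17661 ± 424.5 genes with at least 1 count (SD, n = 8) and inhibited ones 17780 ± 635.9 (SD, n = 8), a difference within the spread of the libraries (exact permutation test within replicate numbers, two-sided, p = 0.7269). Mitochondrially encoded genes took 32.1% ± 3.28 of the counts in active libraries and 33.9% ± 3.65 in inhibited ones (exact permutation test, two-sided, p = 0.08796, adjusted over the 2 measures 0.1759, smallest possible p 0.00154). Most of this was ribosomal RNA, with mt-Rnr2 alone at 25.4% to 35.9% per library. Without mt-Rnr1 and mt-Rnr2 the shares were 0.712% ± 0.034 and 0.732% ± 0.096 (exact permutation test, two-sided, p = 0.5725). Myotube markers were present throughout, with Ckm, the muscle creatine kinase, at 205 to 425 CPM (counts scaled to a common library total) and Myh3, embryonic myosin heavy chain, at 1350 to 2020 CPM. Markers of undifferentiated myoblasts were also present, with Cdh15 at 254 to 352 CPM, Mki67 at 25.3 to 63.7 CPM and Pax7 at 0.908 to 2.68 CPM. The macrophage markers Adgre1 and C1qa had 0 counts in all 16 libraries. The endothelial marker Cdh5 had at most 1 count. A list of 10 liver markers, 9 of them in the table, summed to 0.0454 to 13.13 CPM in active libraries and 0 to 0.583 CPM in inhibited ones. The highest sum came from agrin with b12 replicate 3, which had 126 counts of Alb. None of these liver genes was abundant enough to be tested. The first replicate of agrin with 13-3B5xb12 had the fewest genes with counts, 16261, and is referred to below where results rest on it.

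No gene differed between active and inhibited MuSK at an adjusted p under 0.05. Of 13351 genes tested with edgeR's quasi-likelihood test and the replicate number as a block, 0 passed (0% called), and the smallest adjusted p was 0.9582. At an unadjusted p under 0.05 there were 637 genes (4.77%), of which 330 were higher in active libraries (2.47%) and 307 lower (2.3%). The Wald test of DESeq2 also called 0 genes and had 710 at an unadjusted p under 0.05. The size of the differences is limited by their 95% confidence intervals: for 10540 genes (78.9%) the interval lay within a 1.5-fold change in either direction. Among the 8802 genes with a mean above 8 CPM it did so for 8769 (99.6%), and 95% of these genes had a log2 fold change of less than 0.17 in size. The intervals assume that libraries of the same state vary about a common level, so differences between the 2 treatments of a state count as spread. They hold for 1 gene at a time and are not adjusted for the number of genes tested. For genes picked below by their p or after their values were seen, an interval that leaves out 0 does not establish a difference.

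**Figure D1:**
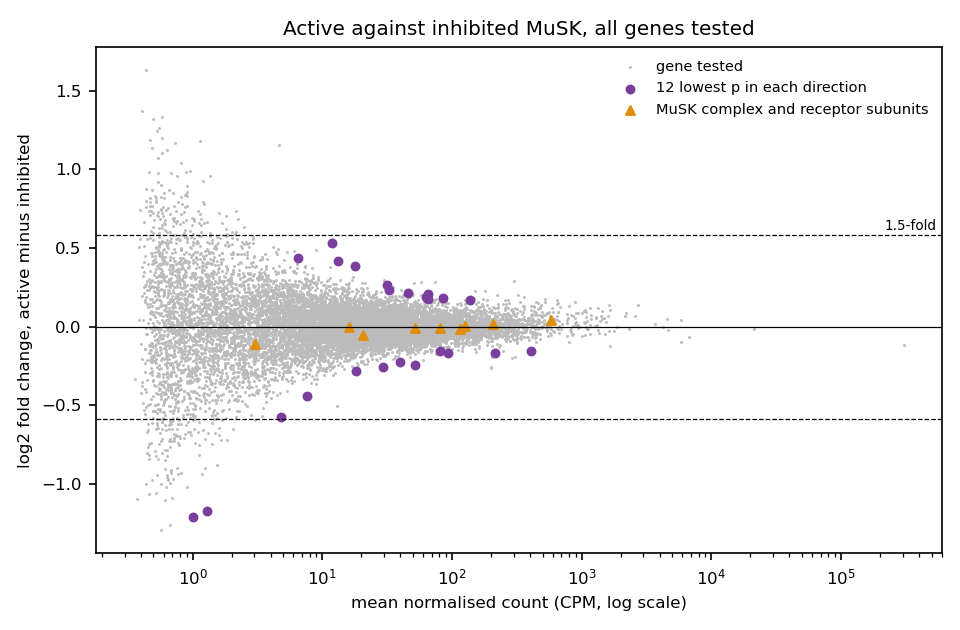
Log2 fold change of active minus inhibited libraries (y axis) against the mean normalised count on a log scale (x axis) for the 13351 genes tested. Purple points are the 12 genes with the lowest p in each direction, orange triangles are Musk, Lrp4, Agrn, Dok7 and 5 acetylcholine receptor subunits, and dashed lines mark a 1.5-fold change; the triangles lie close to 0.

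The genes of the receptor complex itself had nearly equal levels in both states. Musk ranged from 43.8 to 62.1 CPM in active libraries (median 50.6) and from 47.6 to 59.6 CPM in inhibited ones (median 51.0). The 2 ranges overlapped almost fully, and the log2 fold change was -0.01 (SE 0.05, 95% interval -0.12 to 0.10). For Lrp4, the agrin co-receptor, it was 0.02 (95% interval -0.07 to 0.11), from means of 208 ± 20.5 and 205 ± 14.1 CPM (SD, n = 8 each). For the muscle cells' own Agrn it was 0.00 (95% interval -0.20 to 0.20) and for Dok7 -0.05 (95% interval -0.21 to 0.11). These 4 intervals exclude a change of 1.5-fold in either direction.

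The acetylcholine receptor of embryonic muscle is built from the alpha, beta, delta and gamma subunits, and the epsilon subunit replaces gamma in mature synapses. Chrna1, the alpha subunit, ranged from 542 to 630.0 CPM in active libraries (median 598) and from 530.0 to 617 CPM in inhibited ones (median 566). By treatment mean the order was bivalent 13-3B5 (612 ± 14.3 CPM, SD, n = 4), agrin with 11-3F6xb12 (590.0 ± 27.9), agrin with b12 (563 ± 26.5) and agrin with 13-3B5xb12 (550.2 ± 17.04), so an inhibited treatment stood above an active one and the ranges of neighbours overlapped. The means of the 2 active treatments lay further apart than those of the 2 states, 588 and 570.1 CPM. The pooled log2 fold change of Chrna1 was 0.04 (adjusted p = 0.9619, SE 0.04, 95% interval -0.04 to 0.13). Chrnb1 had a log2 fold change of -0.02 (95% interval -0.13 to 0.09), Chrnd 0.01 (95% interval -0.09 to 0.11) and Chrng -0.01 (95% interval -0.12 to 0.10). Chrng was tighter in active libraries, 77.7 to 87.7 CPM, than in inhibited ones, 67.25 to 95.7 CPM; no test of the spread was made.

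Chrne was the least certain of the subunits, with 44 to 94 counts per library. It ranged from 1.85 to 4.17 CPM in active and from 1.96 to 4.62 CPM in inhibited libraries, and its log2 fold change was -0.11 (95% interval -0.51 to 0.29). Each treatment of either state had a mean between 2.69 and 3.39 CPM. Chrne and Chrna1 are shown with the 250 bases upstream of their start (RefSeq, GRCm38.p6, strand of the gene, 5′ to 3′), since regulation of these promoters is the textbook readout of MuSK and of muscle activity. The Chrna1 sequence is chr2:73580339-73580588 on the minus strand and that of Chrne is chr11:70619195-70619444 on the minus strand. Capitals mark the E-box letters CANNTG, bound by myogenic basic helix-loop-helix factors, and in Chrne also CCGGAA, the letters at the heart of the N-box, which ETS factors bind at synaptic genes.
Chrna1: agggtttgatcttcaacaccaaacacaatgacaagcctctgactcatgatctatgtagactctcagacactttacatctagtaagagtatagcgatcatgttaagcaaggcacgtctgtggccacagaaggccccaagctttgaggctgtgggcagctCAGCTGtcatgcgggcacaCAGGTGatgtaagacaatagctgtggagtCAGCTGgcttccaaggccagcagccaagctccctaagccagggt
Chrne: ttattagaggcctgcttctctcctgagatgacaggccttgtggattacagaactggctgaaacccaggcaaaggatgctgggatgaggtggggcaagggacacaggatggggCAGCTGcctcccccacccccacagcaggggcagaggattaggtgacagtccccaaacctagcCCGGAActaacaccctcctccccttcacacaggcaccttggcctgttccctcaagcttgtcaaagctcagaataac
Chrna1 holds CANNTG at 92, 73 and 44 bases before its start and Chrne at 138, with CCGGAA at 76 bases before the start of Chrne. Searched on both strands, CANNTG occurs in 66.2% and CCGGAA in 12% of the 32851 promoters of the table over the same 250 bases, and the 2 motifs do not overlap here. These matches are descriptions of the sequence. With MuSK active or inhibited, neither gene differed beyond the spread of its libraries.

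**Figure D2:**
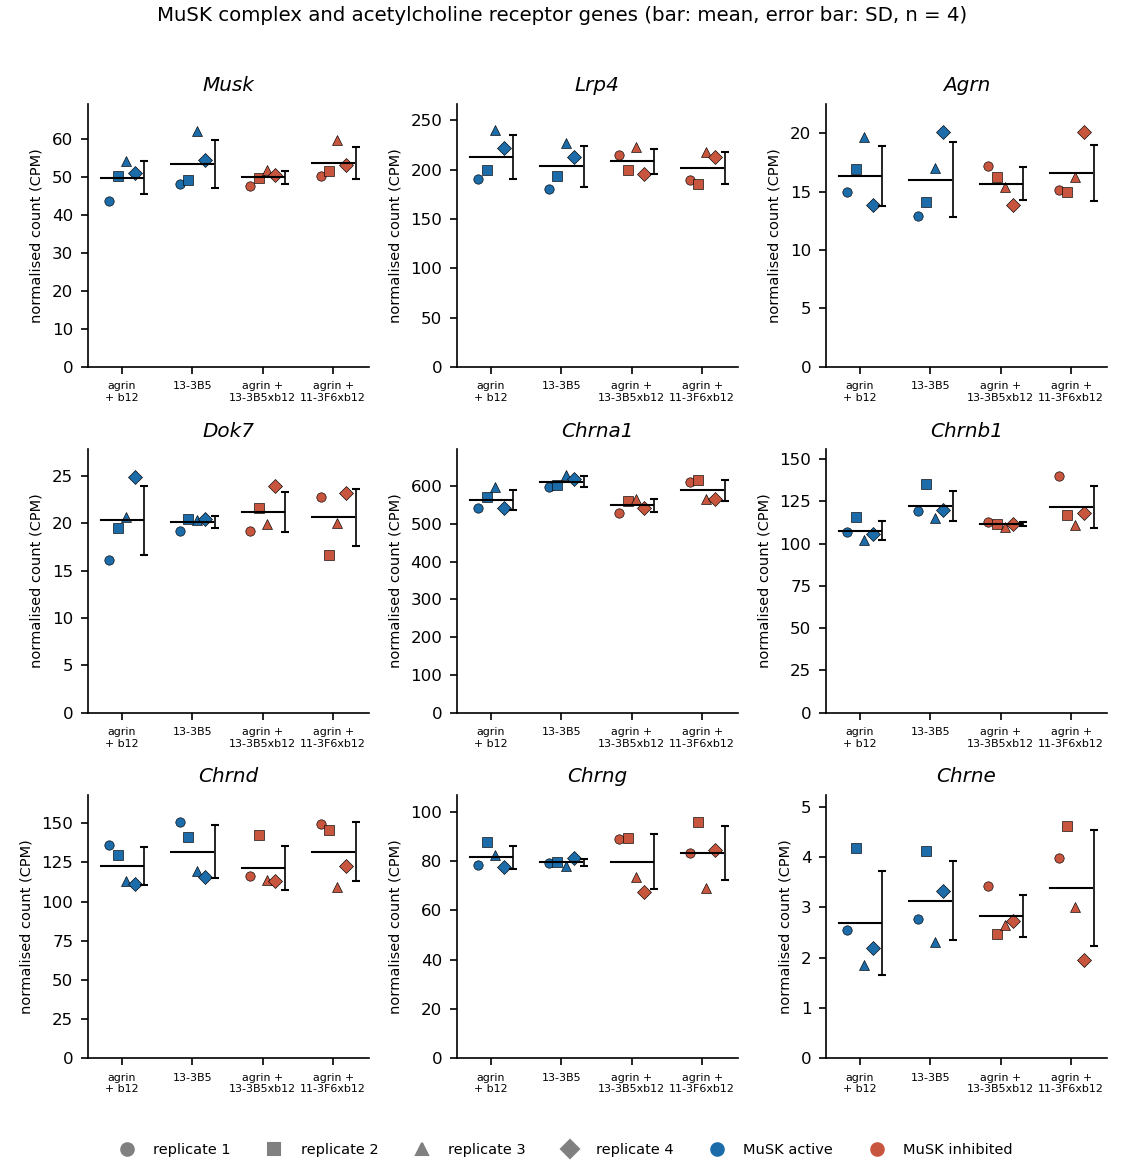
Normalised count (CPM, y axis) of the MuSK complex and receptor subunit genes in each of the 16 libraries, by treatment (x axis). Blue marks active and red inhibited MuSK, symbols give the replicate number, and bars and error bars are mean and SD of n = 4; Chrna1 runs from 530.0 to 630.0 CPM across all of them.

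Over a list of 25 genes of the receptor and the MuSK complex, 23 were tested, 0 were called, 9 had a log2 fold change above 0 and 14 below 0 (50.6% and 49.4% of all genes). Their median was -0.02, against 0.00 for all genes tested, and the 95% interval lay within 1.5-fold for all 23. The adaptor Crk, which binds phosphorylated Dok7, was the 1 member with an unadjusted p under 0.05: it was 125 to 148 CPM in active libraries (median 138) and 138 to 155 CPM in inhibited ones (median 151). Its log2 fold change was -0.11 (adjusted p = 0.9582, SE 0.04). Rapsn, the scaffold that clusters the receptor, had 0.01 (95% interval -0.08 to 0.11).

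Among synaptic basal lamina and transmission genes, 0 of 27 tested had an unadjusted p under 0.05. Ache, acetylcholinesterase, had a log2 fold change of 0.61 and Colq, its collagen tail, 0.22, while Utrn had 0.01 and the neuregulin receptor subunits Erbb2 and Erbb3 -0.02 and 0.07. None of these 5 passed, and the unadjusted p of Ache was 0.151. ERK feedback inhibitors and ETS genes, which follow growth factor signalling, were likewise spread on both sides of 0: 9 of 17 lay above and 8 below, with a median of 0.02. Spred3 had 0.44 and Etv1 0.25, and Etv5, an ETS factor of synaptic nuclei, -0.16, each with an adjusted p of 0.9582. In the denervation and atrophy list, 7 of 20 lay above 0 and 13 below, with the ubiquitin ligase genes Fbxo32 at -0.02 and Trim63 at 0.06, Gadd45a at 0.00 and Myog, the myogenic factor that denervation induces, at 0.06. Fbxo30, the ubiquitin ligase known as MUSA1, was 35.8 to 46.5 CPM in active libraries (median 40.8) and 42.7 to 47.4 CPM in inhibited ones (median 46.2). Its log2 fold change was -0.14 (adjusted p = 0.9582, SE 0.06), and in each replicate number both active libraries lay below both inhibited ones.

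The 12 genes with the lowest p among those higher in active libraries were Rrad, H2bc12, Polh, H2bc14, H4c6, Mrpl9, Mrpl24, Ufc1, Jpt1, Dennd2c, Ccn5 and Rmdn3, all at an adjusted p of 0.9582. The core histone genes H2bc12, H2bc14 and H4c6 stood among them. Replication-dependent histone messages lack a poly(A) tail and are retained in total RNA libraries, and they are known to be abundant in cells that copy their DNA. H2bc12 ranged from 10.6 to 21.3 CPM in active libraries (median 13.0) and from 5.54 to 15.5 CPM in inhibited ones (median 9.35). Both active libraries exceeded both inhibited ones in replicates 2, 3 and 4, and in replicate 1 the highest value, 15.5 CPM, belonged to agrin with 13-3B5xb12. The log2 fold change of H2bc12 was 0.53 (adjusted p = 0.9582, SE 0.14, 95% interval 0.25 to 0.81).

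H2bc12 passed the threshold in 6 of the 36 alternative fits. Its log2 fold change was 0.66 (adjusted p = 0.009233) without the first replicate of agrin with 13-3B5xb12, 0.76 (adjusted p = 0.003551) without all libraries of replicate 1 and 0.63 (adjusted p = 0.0393) with limma's voom and sample weights. Over all 36 fits the log2 fold change ran from 0.27 to 0.80 and never changed sign. Apart from voom and the fit with no filter on low counts, the fits in which H2bc12 passed all left out agrin with 13-3B5xb12 replicate 1. That library had the highest inhibited value of H2bc12, 15.5 CPM, so these fits are not independent of each other. H2bc14 ranged from 10.1 to 20.4 CPM in active and from 6.79 to 14.4 CPM in inhibited libraries, with a log2 fold change of 0.42 (SE 0.12). H4c6 ranged from 14.6 to 28.7 and from 10.45 to 21.6 CPM, with 0.38 (SE 0.11). In all 3 genes the libraries of the 2 states overlapped.

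The promoters of H2bc12 and H2bc14 are shown because both genes stand among the top 12 and share a sequence element just before the start. They lie in the histone cluster of chromosome 13, at chr13:22035571-22035820 and chr13:21721794-21722043, both on the plus strand (RefSeq, GRCm38.p6, 250 bases upstream of the start, 5′ to 3′). Capitals mark the octamer ATTTGCAT, which POU factors of the Oct family bind in H2B promoters.
H2bc12: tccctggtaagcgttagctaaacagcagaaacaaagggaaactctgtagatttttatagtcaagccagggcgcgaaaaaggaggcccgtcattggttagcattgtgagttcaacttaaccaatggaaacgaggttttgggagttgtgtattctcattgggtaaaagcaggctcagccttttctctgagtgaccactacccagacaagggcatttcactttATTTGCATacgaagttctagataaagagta
H2bc14: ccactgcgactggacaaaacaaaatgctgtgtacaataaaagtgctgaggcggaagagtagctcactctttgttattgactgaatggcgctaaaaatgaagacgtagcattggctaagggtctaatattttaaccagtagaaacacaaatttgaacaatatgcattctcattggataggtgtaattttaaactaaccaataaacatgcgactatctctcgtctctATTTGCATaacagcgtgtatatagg
The octamer begins 30 bases before the start in H2bc12 and 25 in H2bc14. On either strand it occurs in 1.6% of the 32851 promoters, in 6 of the 12 tested H2B genes that have a promoter in the table, and in 5 of 38 other tested histone genes. The 14 tested H2B genes had a median log2 fold change of 0.17 and the 41 other histone genes 0.10.

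Across all 55 tested histone genes, a list drawn up after the values of H2bc12 had been seen and therefore given as a description, 42 lay above 0 and 13 below, with a median of 0.12. At an unadjusted p under 0.05, 9 were higher in active libraries and 1 was lower (2.47% and 2.3% of all genes tested). H2ac8, also chosen after its values were seen, had 0.96, with a mean of 1.803 ± 0.823 CPM in active and 0.914 ± 0.535 CPM in inhibited libraries (SD, n = 8), and 11 to 65 counts per library. H4c14 had -0.25. The histone median was 0.05 in replicates 1 and 2 and 0.17 in replicates 3 and 4. Without the first replicate of agrin with 13-3B5xb12 it was 0.09. Histone genes of the same class can be near-identical copies, and reads shared between them may have been dropped or divided, so single histone genes are uncertain.

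Rrad, a small GTPase that restrains calcium channels, had the lowest p among genes higher in active libraries. It ranged from 30.0 to 41.9 CPM in active libraries (median 33.7) and from 25.6 to 32.4 CPM in inhibited ones (median 28.55), with overlap. Its log2 fold change was 0.26 (SE 0.07, 95% interval 0.12 to 0.40). Polh, a DNA polymerase that copies past ultraviolet lesions, had 0.24 (SE 0.07). The mitochondrial ribosomal proteins Mrpl9 and Mrpl24 had 0.19 and 0.21, Ufc1, the conjugating enzyme of the UFM1 modifier, 0.18 and Dennd2c 0.43.

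On the other side, Tmed10, a cargo receptor of vesicles between endoplasmic reticulum and Golgi, had the lowest p of all genes tested (0.0003378, adjusted 0.9582). It ranged from 40.8 to 50.7 CPM in active libraries (median 47.6) and from 49.9 to 65.7 CPM in inhibited ones (median 55.6). The ranges overlapped only between 49.9 and 50.7 CPM, and both active libraries lay below both inhibited ones in all 4 replicate numbers. The log2 fold change was -0.24 (SE 0.06, 95% interval -0.37 to -0.12). Ank, a transporter that exports pyrophosphate, had -0.17 (SE 0.04, 95% interval -0.26 to -0.08), from means of 204 ± 17.6 and 229 ± 17.9 CPM (SD, n = 8). It was also lower in both active libraries of each number.

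Among the other genes with the lowest p on this side, the RNA helicase Ddx3x had -0.15 (SE 0.04), Ercc4, a nuclease of excision repair, -0.57 (SE 0.17), the chemokine Cx3cl1 -0.25 (SE 0.08) and the urokinase gene Plau -0.22 (SE 0.07). Hmga2, a chromatin protein of proliferating and embryonic cells, had -0.44 (SE 0.13), from means of 6.44 ± 1.41 and 8.80 ± 1.73 CPM (SD, n = 8). Lims2 had -0.28 (SE 0.08), Atp5g3 -0.17 (SE 0.05) and Kansl2 -0.16 (SE 0.05). The remaining 2, 2810402E24Rik and Gm36298, had -1.17 and -1.21 at means under 2 CPM in both states. None of the 12 passed.

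**Figure D3:**
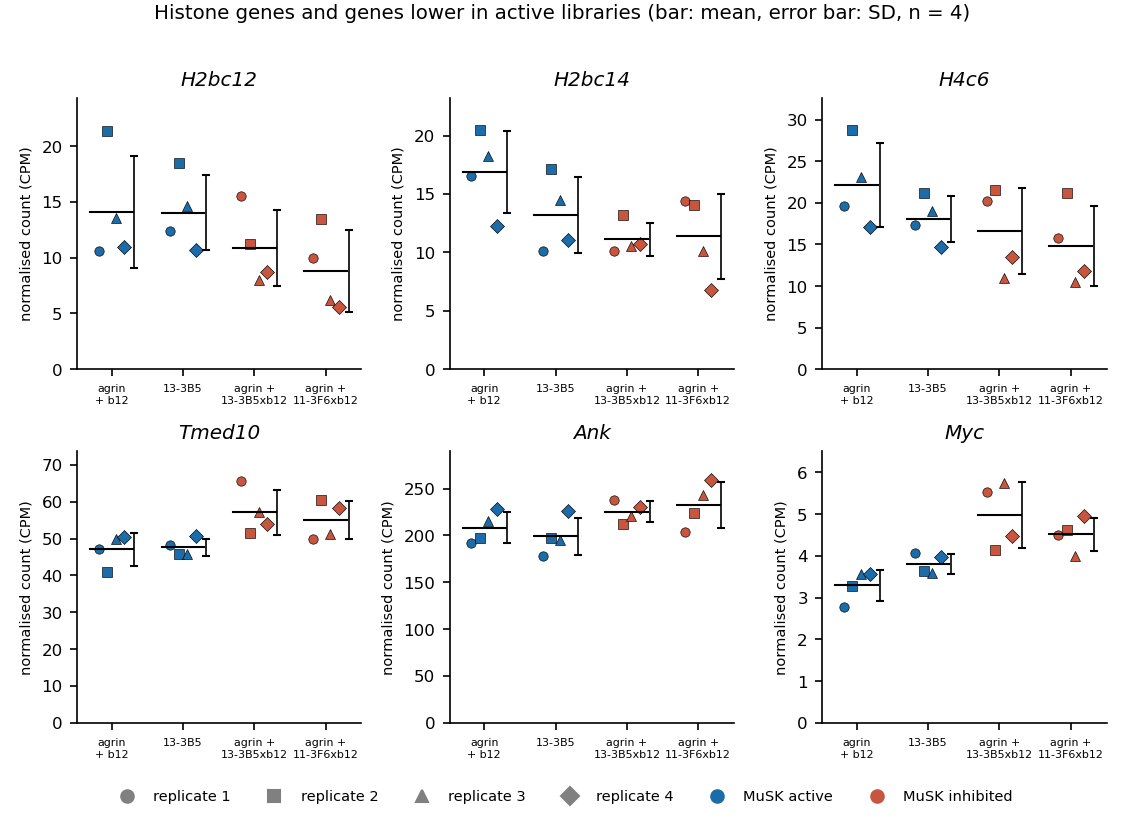
Normalised count (CPM, y axis) of 3 histone genes and of Tmed10, Ank and Myc in each library, by treatment (x axis). Blue marks active and red inhibited MuSK, symbols give the replicate number, and bars and error bars are mean and SD of n = 4; Tmed10 stays at or under 50.7 CPM in active libraries and at or above 49.9 CPM in inhibited ones.

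A stricter reading asks in how many genes both active libraries of a replicate number stood on the same side of both inhibited ones in 4 of 4 numbers. Active was above in 11 genes (0.0824%) and below in 15 (0.112%). Those above included Dennd2c, Ufc1, H2ac8, Speg (log2 fold change 0.17), a kinase of the triad, and Lfng (0.30), which modifies Notch. Those below included Tmed10, Ank, Myc, Fbxo30, Zyx (-0.16), a focal adhesion protein, and Dgkh (-0.35), a diacylglycerol kinase. Without regard to the number, the labels have 12870 arrangements, and complete separation in a given direction is 1 of them. More genes than that, 13351, were tested, so a separated gene can arise by label order alone. Complete separation, with all 8 active libraries above all 8 inhibited ones, occurred in 1 gene (0.00749%), and the reverse in 0 (0%). That gene was Gm9512, named after its values were seen, at 0.703 to 1.23 CPM against 0.338 to 0.641 CPM, which is 8 to 27 counts per library. Its log2 fold change was 0.85 (adjusted p = 0.9582, SE 0.35).

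One transcript beside a receptor gene is given although it lies outside the naming rule. Chrna1os, annotated as antisense, lies on the plus strand at chr2:73584850-73589208 (GRCm38), upstream of Chrna1 and not overlapping it. It ranged from 0.955 to 2.95 CPM in active libraries and from 0.137 to 1.499 CPM in inhibited ones, at 3 to 63 counts per library, with overlap. The log2 fold change was 1.18 (adjusted p = 0.9582, SE 0.36, 95% interval 0.44 to 1.92).

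Several gene lists leaned to one side as a whole although 0 of their members was called. All 31 tested cytosolic ribosomal protein genes lay above 0, with a median log2 fold change of 0.09 and a range of 0.01 to 0.16. Rps23 ranged from 510.1 to 604.5 CPM in active libraries and from 354.6 to 568.3 CPM in inhibited ones, the lowest being agrin with 13-3B5xb12 replicate 1. In a list of nuclear genes for oxidative phosphorylation, the respiratory chain and ATP synthase of mitochondria, 30 of 34 lay above 0, with a median of 0.10. On that side, 7 (against 2.47% of all genes) had an unadjusted p under 0.05. The list does not hold every such gene. Atp5g3, an ATP synthase gene outside it and 1 of the 12 named above as lower, had -0.17 (adjusted p = 0.9582). Sdhb, of complex II, had 0.15 (SE 0.06), Ndufv1, of complex I, 0.10 (SE 0.04) and Cox7a1, the muscle form of a complex IV subunit, 0.57.

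Over all 16 libraries, these shifts went with transcript length and with 1 library, but the length trend was not seen in replicates 3 and 4. Ribosomal protein and oxidative phosphorylation genes have short transcripts, with median lengths of 1248 and 1553 bases. The histone genes, which also leaned above 0, had a median length of 534 bases. Mitochondrially encoded genes had 1038 bases but leaned below 0. Whether length accounts for the lean of a list was not tested. With all genes divided into 4 equal groups by the length of their longest transcript, the shortest group (up to 2064 bases) had a median log2 fold change of 0.04, with 62.7% above 0, and the longest (4706 bases or more) -0.02, with 40.8% above 0. In the first replicate of agrin with 13-3B5xb12, ribosomal protein genes lay 0.41 below the mean of its replicate number on the log2 scale at the median (-0.41), while the other 15 libraries lay between -0.11 and 0.14. Without that library the median was 0.04 for ribosomal protein genes (29 of 31 above 0) and 0.05 for oxidative phosphorylation genes (29 of 34 above 0). For the shortest and longest groups it was 0.01 and 0.00. In replicates 3 and 4 alone, the medians were 0.02 and 0.03 for the 2 lists, with 25 of 34 oxidative phosphorylation genes above 0. There the shortest length group had a median of 0.003 (50.7% above 0) and the longest 0.01 (55.4% above 0). In replicates 1 and 2 these were 0.08 (67.3%) and -0.05 (30%). Most members of both lists kept their side without agrin with 13-3B5xb12 replicate 1, at smaller medians.

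Mitochondrially encoded genes leaned the other way, with 9 of 11 below 0 and a median of -0.06. mt-Cytb ranged from 149 to 214 CPM in active libraries and from 188 to 265 CPM in inhibited ones, with a log2 fold change of -0.26 (adjusted p = 0.9582, SE 0.08). mt-Nd1 also had -0.26 (SE 0.12). Leaving out a treatment turned the direction of this list: the median was -0.22 without agrin with 13-3B5xb12 and 0.08 without agrin with 11-3F6xb12. Without agrin with 13-3B5xb12 replicate 1 alone, 0 of 11 lay above 0, with a median of -0.135.

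Immediate early genes, which are transcribed within minutes of a stimulus, had 4 of 22 members above 0 and 18 below, with a median of -0.10. At an unadjusted p under 0.05, 2 were lower (2.3% of all genes tested). Myc ranged from 2.77 to 4.06 CPM in active libraries (median 3.58) and from 4.00 to 5.74 CPM in inhibited ones (median 4.56), and in all 4 numbers both active libraries lay below both inhibited ones. Its log2 fold change was -0.42 (adjusted p = 0.9582, SE 0.15, 95% interval -0.73 to -0.11). Klf2 had -0.27, Fos -0.25, Egr3 -0.28, Egr1 -0.05 and Junb -0.02, and Fosl1 lay on the other side at 0.29. Without the first replicate of agrin with 13-3B5xb12 the median was -0.07, and it was -0.02 in replicates 1 and 2 against -0.13 in replicates 3 and 4.

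In the BMP and TGF-beta list, 16 of 20 lay below 0, with a median of -0.07 and 2 members lower at an unadjusted p under 0.05 (2.3% of all genes tested). Grem1, a secreted BMP antagonist, ranged from 225 to 379.7 CPM in active and from 227 to 377 CPM in inhibited libraries, with a log2 fold change of -0.20 (SE 0.07). The BMP targets Id1, Id2 and Id3 had -0.22, -0.10 and -0.07, and Smad6 and Smad7, which feed back on the pathway, 0.04 and 0.05. In the Wnt list, 7 of 21 lay above 0 and 14 below. Lef1, a nuclear effector of the pathway, had 0.51 and the secreted protein gene Dkk3 -0.65, and the target Axin2 had -0.04.

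Cell cycle genes had 20 of 28 members above 0, with a median of 0.07; 4 were higher and 1 lower at an unadjusted p under 0.05 (2.47% and 2.3% of all genes tested). The higher ones were Tyms (0.27), Ccnb1 (0.39), Cdk1 (0.21) and Cdc20 (0.29), and the lower one was the G1 cyclin Ccnd1 (-0.26). The direction of the list turned between replicates, with 11 above 0 and 17 below in replicates 1 and 2 (median -0.04) and 23 above and 5 below in replicates 3 and 4 (median 0.25). Without the treatment agrin with b12, 14 lay above and 14 below (median 0.01). The median was 0.03 without agrin with b12 replicate 3 alone and 0.13 without agrin with 13-3B5xb12 replicate 1. Cholesterol synthesis genes had 18 of 23 above 0, with a median of 0.08 and 5 higher at an unadjusted p under 0.05 (2.47% of all genes tested), among them Fdft1 (0.18), Nsdhl (0.24), Pmvk (0.23) and Mvk (0.20). The median was 0.02 in replicates 1 and 2 and 0.17 in replicates 3 and 4, where 11 of the 23 were higher at an unadjusted p under 0.05 (4.98% of all 13506 genes tested in those replicates, in either direction).

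The remaining lists had medians between -0.01 and 0.05. Among 37 sarcomere genes, 24 lay above 0, and the slow troponins Tnni1 and Tnnt1 had 0.12 and 0.09. Myogenic and MEF2 factors had 6 of 13 above 0, with Myod1 at -0.08, Myf5 at -0.30 and Mef2c at 0.05. Glycolysis and phosphocreatine genes were divided, 12 above and 11 below, with Hk2, hexokinase of insulin-responsive muscle, at -0.21. Collagens had 10 of 17 above 0 and all values between -0.10 and 0.11. Their direction turned, with 3 above and 14 below in replicates 1 and 2 (median -0.07), 15 above and 2 below in replicates 3 and 4 (median 0.10), and 2 above and 15 below without the treatment agrin with b12 (median -0.05). Small leucine-rich proteoglycans (6 of 10 above 0), acute phase and chemokine genes (8 of 14) and interferon and antigen presentation genes (11 of 22) were spread on both sides. The first and second of these lists turned with the inhibited treatments. Without agrin with 13-3B5xb12, 3 of 10 proteoglycan genes lay above 0 (median -0.22), and without agrin with 11-3F6xb12 9 of 10 did (median 0.16). For acute phase and chemokine genes it was 11 of 14 (median 0.16) and 2 of 14 (median -0.07). H2-D1, a class I antigen presentation gene, had 0.17 (SE 0.06).

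**Figure D4:**
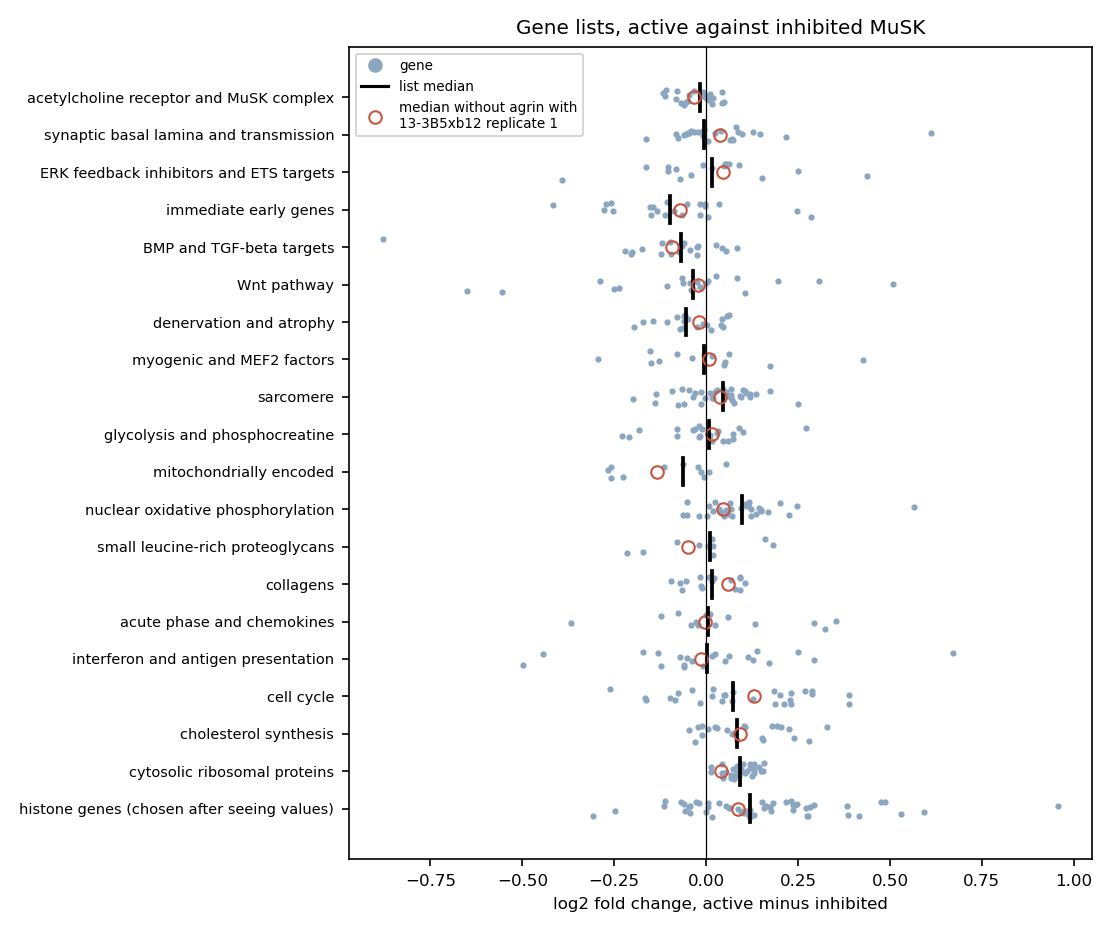
Log2 fold change of active minus inhibited libraries (x axis) for each tested member of 19 gene lists and of the histone genes (y axis). Black bars are list medians, and open circles are the medians without agrin with 13-3B5xb12 replicate 1; for cytosolic ribosomal proteins the median goes from 0.09 to 0.04.

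The 2 treatments of the inhibited state differed from each other in a few genes whose pooled difference between the states was small against its error. A test of both within-state differences together, in a model with the 4 treatments and the replicate number, called 6 genes (0.0449%), and 842 had an unadjusted p under 0.05 (6.31%). They were Ogn, Spon2, Aspn, Tspan8, Pi15 and Smpx, of which Smpx was named after its values were seen. All 6 came from the inhibited pair. 11-3F6xb12 against 13-3B5xb12 alone called 11 genes, and bivalent 13-3B5 against agrin with b12 called 0, with 518 genes at an unadjusted p under 0.05. None of the 6 passed with the replicate number left out of the model.

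Ogn, the proteoglycan osteoglycin, was 450.7 to 701.7 CPM with 11-3F6xb12 and 276 to 371 CPM with 13-3B5xb12, without overlap, and the log2 fold change between them was 0.84 (adjusted p = 5.19e-09, SE 0.07). The active libraries lay at 268 to 472 CPM. The pooled comparison therefore averaged an inhibited treatment with higher values and one with lower values, and its log2 fold change for Ogn was -0.17 (adjusted p = 0.9638, SE 0.18). Spon2, a secreted matrix protein, was 21.9 to 34.9 CPM with 11-3F6xb12 and 12.03 to 20.3 CPM with 13-3B5xb12, a log2 fold change of 0.96 (SE 0.11), against a pooled value of -0.12 (SE 0.20). Aspn, a relative of Ogn in the same proteoglycan family, had 0.99 between the inhibited treatments and 0.02 pooled. Tspan8, a tetraspanin, had 0.79 and 0.01, and Smpx, a small muscle protein of the costamere, 0.40 and -0.04. Pi15, a peptidase inhibitor, ran the other way, with -0.58 and -0.17.

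**Figure D5:**
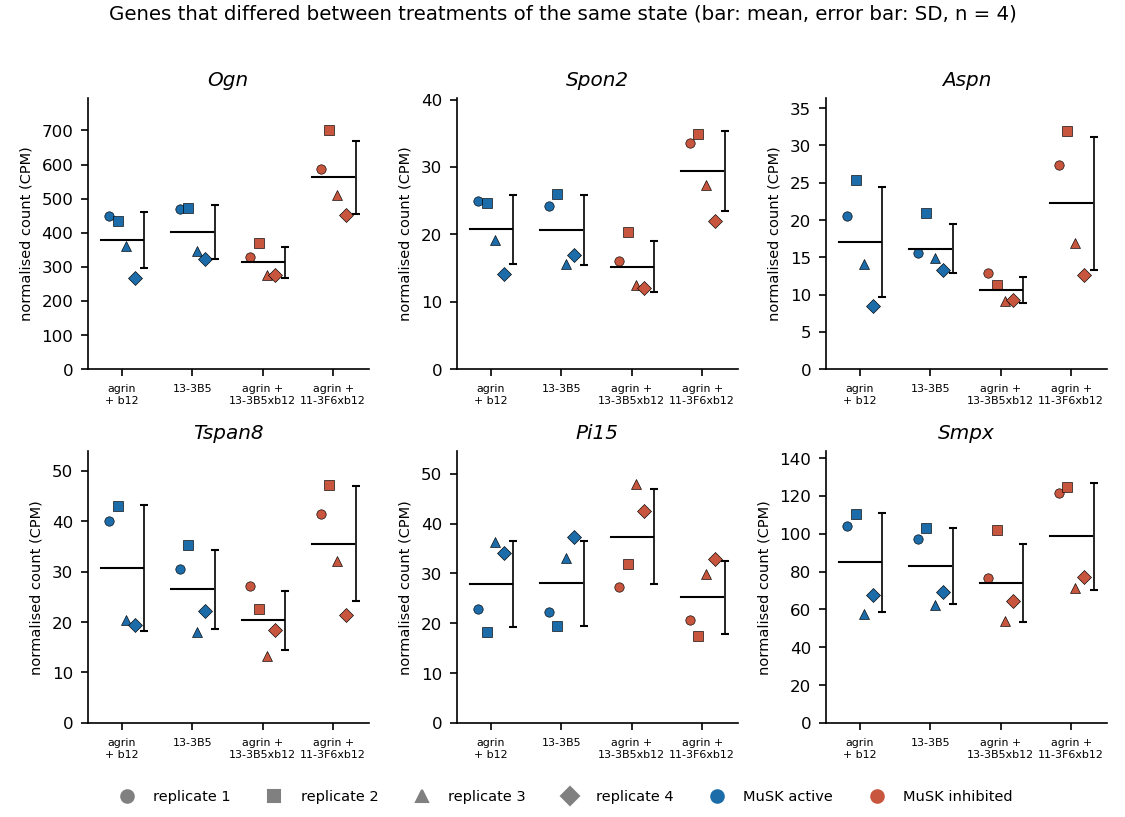
Normalised count (CPM, y axis) in each library, by treatment (x axis), of the 6 genes that differed between treatments of the same state. Blue marks active and red inhibited MuSK, symbols give the replicate number, and bars and error bars are mean and SD of n = 4; Ogn has 276 to 371 CPM with 13-3B5xb12 and 450.7 to 701.7 CPM with 11-3F6xb12.

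The state difference was also compared between replicates 1 and 2 and replicates 3 and 4, since libraries of replicates 1 and 2 resembled each other, as did those of 3 and 4. The interaction called 0 genes (0%), with 575 at an unadjusted p under 0.05 (4.31%) and a smallest adjusted p of 0.982. Replicates 1 and 2 alone called 0 (538 at an unadjusted p under 0.05) and so did replicates 3 and 4 alone (672). The lowest p belonged to Trp53inp2, an autophagy gene, whose log2 fold change was -0.13 in replicates 1 and 2 and 0.43 in replicates 3 and 4, to Ap2a1, of the clathrin adaptor, with -0.40 and 0.27, and to Tubgcp4, of the gamma-tubulin ring, with -0.22 and 0.21. Among the receptor genes, Chrng had -0.14 and 0.12 and Chrna1 -0.01 and 0.09.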

How the data were processed

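Total RNA of C2C12 myotubes was sequenced after ribosomal RNA removal with a stranded kit, per the labels' protocols. The authors deposited whole-number counts per gene and library, not normalized. The submitters' processing notes name Trim Galore 0.6.6, cutadapt 2.10, STAR 2.7.6a, HTSeq 0.12.4, DESeq2 1.32.0 and the build GRCm38; how reads were assigned by strand or shared between gene copies is not given in the sources used here. Treatments and replicate numbers came from the titles, and nothing says that the biological replicates were separate cultures, so p-values measure the spread between these libraries.

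From the counts, edgeR 4.0.16 in R 4.3.3 kept genes by filterByExpr (minimum count 10, minimum total 15), leaving 13351 of 26722. Libraries were scaled by TMM, and a robust quasi-likelihood model with state and replicate number was tested, two-sided, with Benjamini-Hochberg adjustment over all tested genes at 0.05. All adjusted p-values in the text are from this test unless limma 3.58.1 or DESeq2 1.42.0 is named. SE is the log2 fold change divided by the root of F. CPM use the TMM-scaled totals. A total of 3 counts, the level treated as not detectable, is 0.124 to 0.161 CPM; floors and intervals cover counting error or library spread only. Scripts were tested on simulated data. Replicates within treatments were compared by chi-square, which was at least 5.17 per gene in all 24 pairs, so each library was counted once.

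Genes were named as the 12 with the lowest p on each side, the receptor genes, the 2 lowest p of each list, the 5 of the within-state and 3 of the interaction test, and 6 genes called by earlier work (Ogn, Aspn, Spon2, Tspan8, Hp and mt-Nd1). Genes named besides these were chosen after their values were seen. The comparison, rules and lists were chosen with earlier results of these data known. Promoters are from a RefSeq table of GRCm38.p6; gene positions are from GENCODE M21, which held 26667 of the IDs. Alternatives were other fits, scalings and filters, and the removal of treatments, replicate numbers and single libraries. Some members of the lists are counted but not reported here by name.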

Additional observations from a re-analysis of the deposited data

Results flagged for a closer look

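Of 90 groups of 8 libraries checked for 1 library far from the others, 7 stood out, where chance gives about 1 in 20. Among active libraries, Chrng was 87.67 CPM in agrin with b12 replicate 2, with the others at 77.73 to 82.41, and Trp53inp2 was 54.25 CPM in agrin with b12 replicate 3, with the others at 39.2 to 45.93. Among inhibited libraries, Musk was 59.64 CPM in agrin with 11-3F6xb12 replicate 3 (others 47.61 to 53.12), Chrnb1 was 139.9 CPM in its replicate 1 (others 110.0 to 118.2), and Polh was 38.79 CPM in its replicate 2 (others 26.66 to 31.94). Agrin with 13-3B5xb12 replicate 1 stood out by its number of genes with counts, 16260 after rounding, where the others had 17810 to 18260, and by Mrpl24 at 45.78 CPM, where the others had 60.0 to 64.64. Mrpl24 is among the genes with the lowest p between the states.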

How the results depend on the processing

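Of the alternatives for the main comparison, those that called genes were limma's voom with sample weights (1, H2bc12), no filter on low counts (16, among them H2bc12, H4c6, Grem1, mt-Rnr2, mt-Nd1 and mt-Cytb), leaving out agrin with 13-3B5xb12 (6: Ogn, Spon2, H2bc12, mt-Rnr2, mt-Co1 and Cebpd), and leaving out the first replicate of agrin with 13-3B5xb12 together with agrin with b12 replicate 3 (1, H2bc12). Leaving out 1 replicate number or 1 library called 0 to 2 genes: Mt2 and H2bc12 without replicate 1, and H2bc12 without agrin with 13-3B5xb12 replicate 1. Every other alternative called 0. The within-state count of 6 became 0 with no replicate block, 77 with no filter and 2 to 20 without 1 replicate number (2 without replicate 2, 3 without replicate 3, 20 without replicate 4). The cause was not tested.

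With no replicate block the main comparison called 0 genes (475 at an unadjusted p under 0.05) and the interaction 0. Libraries with the same number had correlated deviations from their treatment means (mean r 0.194 over 11158 genes, over 0.1 in 21 of 24 pairs), but so had libraries with another number within replicates 1 and 2 or within 3 and 4 (mean r 0.193), so the numbers were not shown to pair the libraries. The difference in genes with counts, -119.5, reversed to 113.8 (exact permutation test, p = 0.04475) when at least 10 counts were required. Among 85 genes named in the text or by the rule, 116 of 3059 combinations of gene and alternative had another sign, in 22 genes, none of which was called in the main comparison.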
